A study of Homo sapiens with 12 samples.

Results

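The amino acid carriers described here are 38 genes of the solute carrier (SLC) families 1, 3, 6, 7, 25, 36, 38 and 43, taken by gene symbol from a list of carrier families, by a rule that uses no measured value. All 38 were found among the 45478 genes of the count table. The table holds mRNA sequencing of A498 and 786-O, established lines of human advanced clear cell renal cell carcinoma, and of a sunitinib-resistant culture of each, with 3 libraries in each of 4 groups. Sunitinib is an inhibitor of receptor tyrosine kinases. The resistant A498 culture was selected at 2 µM sunitinib and the resistant 786-O culture at 4 µM, over 4 months or more than 20 passages, and the parental groups, called A498 and 786-O alone, were not selected. All 4 groups were grown in DMEM with glucose, glutamine and serum, and the labels give no treatment for any of the 12 libraries. The library names hold the letters veh, which are not explained. The resistant cultures were kept in sunitinib throughout selection, and whether the drug was present at harvest is not stated. Exposure to the drug and lasting resistance therefore cannot be told apart. Each resistant group is 1 selected culture, and nothing states that the 3 libraries of a group come from separate cultures, so p-values measure the spread between these libraries, which may be technical.

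Cells take up and release amino acids through carriers that either exchange one amino acid for another or use a gradient of sodium or protons. SLC1A5 (ASCT2) and the sodium-coupled SLC38A1 and SLC38A2 bring glutamine into the cell, and SLC7A5 (LAT1) exchanges intracellular glutamine for leucine and other large neutral amino acids. SLC7A5 and the cystine/glutamate exchanger SLC7A11 (xCT) both need the heavy chain SLC3A2 (CD98) to reach the plasma membrane. Other carriers work in the membranes of the lysosome, where amino acids leave for the cytosol and are sensed by mTORC1, or in the inner membrane of mitochondria.

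SLC7A5, SLC36A1, SLC43A1, SLC38A5 and SLC25A13 are shown by sequence first, because they changed in resistant 786-O and were the carriers whose promoter held the E-box CACGTG, a palindrome bound by basic helix-loop-helix factors such as MYC and TFEB. Each run is the 250 bases before the transcription start in RefSeq (build GRCh38.p14), read in the direction of the gene, and capitals mark the motif matches. SLC7A5 is on the minus strand at chr16:87869508-87869757 and SLC43A1 on the minus strand at chr11:57515703-57515952. SLC36A1 is on the plus strand at chr5:151447353-151447602, SLC38A5 on the minus strand at chrX:48470261-48470510 and SLC25A13 on the minus strand at chr7:96322099-96322348.
SLC7A5: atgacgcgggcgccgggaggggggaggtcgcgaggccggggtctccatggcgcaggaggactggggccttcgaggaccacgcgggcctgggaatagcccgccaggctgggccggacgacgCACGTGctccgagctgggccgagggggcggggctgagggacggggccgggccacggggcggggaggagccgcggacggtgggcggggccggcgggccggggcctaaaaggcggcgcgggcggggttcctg
SLC36A1: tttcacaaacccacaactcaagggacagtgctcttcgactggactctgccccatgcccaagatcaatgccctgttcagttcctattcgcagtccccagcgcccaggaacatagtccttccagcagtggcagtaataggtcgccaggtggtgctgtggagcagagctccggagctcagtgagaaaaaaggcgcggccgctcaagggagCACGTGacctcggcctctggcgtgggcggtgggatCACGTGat
SLC43A1: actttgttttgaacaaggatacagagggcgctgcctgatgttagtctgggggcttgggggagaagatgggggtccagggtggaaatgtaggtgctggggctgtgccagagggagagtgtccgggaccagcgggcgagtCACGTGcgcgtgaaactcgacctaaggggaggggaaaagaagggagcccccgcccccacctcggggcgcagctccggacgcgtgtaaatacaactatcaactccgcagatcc
SLC38A5: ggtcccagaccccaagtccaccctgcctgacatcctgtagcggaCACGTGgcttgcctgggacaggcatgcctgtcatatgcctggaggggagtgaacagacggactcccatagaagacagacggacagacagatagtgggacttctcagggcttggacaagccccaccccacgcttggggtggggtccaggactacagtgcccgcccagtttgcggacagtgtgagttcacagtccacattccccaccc
SLC25A13: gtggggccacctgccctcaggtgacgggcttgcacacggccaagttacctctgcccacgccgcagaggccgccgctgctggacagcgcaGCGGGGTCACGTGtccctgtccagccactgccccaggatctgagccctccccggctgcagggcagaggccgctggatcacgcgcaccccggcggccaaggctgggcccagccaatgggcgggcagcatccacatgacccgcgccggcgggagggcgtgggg

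A window before a RefSeq start was available for 29 of the 38 carriers, and both strands of each were searched. These carriers had 53 windows, and for each the one nearest the start of the canonical transcript was kept. The background counts all windows without such a choice, so the shares below are not on the same basis. The other 9 had no window and were not searched. They were SLC1A2, SLC3A1, SLC6A6, SLC6A15, SLC7A2, SLC7A3, SLC7A11, SLC38A3 and SLC43A3. The E-box was in 5 of the 29 windows (17.2%), against 6.35% of all 35114 RefSeq windows of the same length. It began 130 bases before the start in SLC7A5, 112 in SLC43A1, 206 in SLC38A5 and 154 in SLC25A13, and in SLC36A1 it occurred at 43 and again at 8 bases before the start. The antioxidant response element TGACNNNGC was in 4 of 29 windows (13.8%), those of SLC1A3, SLC7A1, SLC7A6 and SLC25A13, against 10.91% of all windows. In SLC25A13 the match GCGGGGTCA, on the opposite strand, overlapped the E-box. The ATF4 composite element TGATGNAA was in 0 of 29 windows and in 3.14% of all windows. A match describes letters in these windows and is not a binding site. Of the 5 carriers with an E-box, SLC7A5, SLC36A1 and SLC43A1 rose in resistant 786-O, and SLC38A5 and SLC25A13 fell, as described further on.

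The libraries held 20042519 to 47972092 counts. Levels are given as CPM, counts per 1e6 counts after scaling by the trimmed mean of M values (TMM), and are compared between genes only as CPM per kb of the length of all exons of the gene. The defining marker PAX8 was present in every group at means of 200 to 312 CPM, whereas CA9 was at 1.29 CPM in A498 and at or near 0 in the other groups. Markers of T cells summed to 0.325 to 1.18 CPM in any library, and markers of fibroblasts and endothelium to 3.02 to 25.0 CPM, highest in resistant A498. The libraries labelled resistant A498 stood apart from their label. HIF1A, at 305 ± 11.3 CPM (SD, n = 3) in A498, was at 8.79 ± 0.335 CPM in resistant A498 and at 10.8 ± 0.634 CPM in 786-O. Over 10085 genes the median absolute log2 difference of resistant A498 was 0.44 from A498, 0.35 from 786-O and 0.22 from resistant 786-O, and over the 38 carriers it was 0.34, 0.37 and 0.29. Changes in resistant A498 are therefore given against A498 and, for most carriers, also against 786-O. In resistant 786-O, replicate 2 differed from the other libraries of its group. Each group has a batch label of its own, so batch and group cannot be told apart, and in bulk RNA fewer cells and less RNA per cell cannot be told apart.

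Of the 38 carriers, 32 passed the filter on low counts and were tested. The other 6 (SLC1A2, SLC6A14, SLC6A15, SLC7A3, SLC7A9 and SLC38A3) had at most 4 counts in any library, and SLC6A14 and SLC7A3 had 0 counts in all 12. Carrier reads made up 0.572% ± 0.00177 (SD, n = 3) of all counts in A498, 0.666% ± 0.00494 in resistant A498, 0.413% ± 0.00173 in 786-O and 0.529% ± 0.0482 in resistant 786-O. The share was thus higher in each resistant group than in its parent, with no overlap of libraries. The resistant 786-O libraries ranged from 0.477% to 0.573%. As a sum of reads, the share depends most on SLC7A5, with means of 2314 CPM in A498 and 3164 CPM in resistant A498. In 786-O and resistant 786-O these means were 1667 and 2349 CPM. The median carrier did not rise, with log2 fold changes of -0.11 in resistant A498 against A498 and -0.02 in resistant 786-O.

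SLC7A5, SLC1A5 and SLC3A2 were the carriers with the highest level per length in every group. SLC7A5 alone held 45.5% ± 0.284 (SD, n = 3) of the summed CPM per kb of the 38 carriers in A498, 54.4% ± 0.367 in resistant A498, 42.9% ± 0.244 in 786-O and 50.9% ± 4.41 in resistant 786-O. SLC1A5 held 12.9% to 14.8% and SLC3A2 10.3% to 12.6% over the 4 groups. Together these carriers held 72.9% in A498, 78.5% in resistant A498, 67.3% in 786-O and 74.5% in resistant 786-O. SLC7A5 was the highest by any of 3 definitions of length, but the order of the next carriers was not fixed. With the length of the canonical transcript, SLC3A2 ranked 2 with 24.9% to 29.3% and SLC1A5 ranked 3 with 10.6% to 11.8%. With the length of all exons, SLC38A1 ranked 4 in every group with 3.44% to 5.44%, and rank 5 was held by SLC7A11 in A498 (2.63%), SLC25A13 in 786-O (4.01%) and SLC7A1 in resistant A498 (2.60%) and resistant 786-O (2.89%). With the canonical length, rank 5 was held by SLC25A22 in A498 (2.68%), SLC25A13 in 786-O (3.33%) and SLC1A4 in resistant A498 (2.21%), and in resistant 786-O SLC38A10 (3.04% ± 0.166, SD, n = 3) and SLC38A1 (3.02% ± 0.131) had near equal shares.

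**Figure D1:**
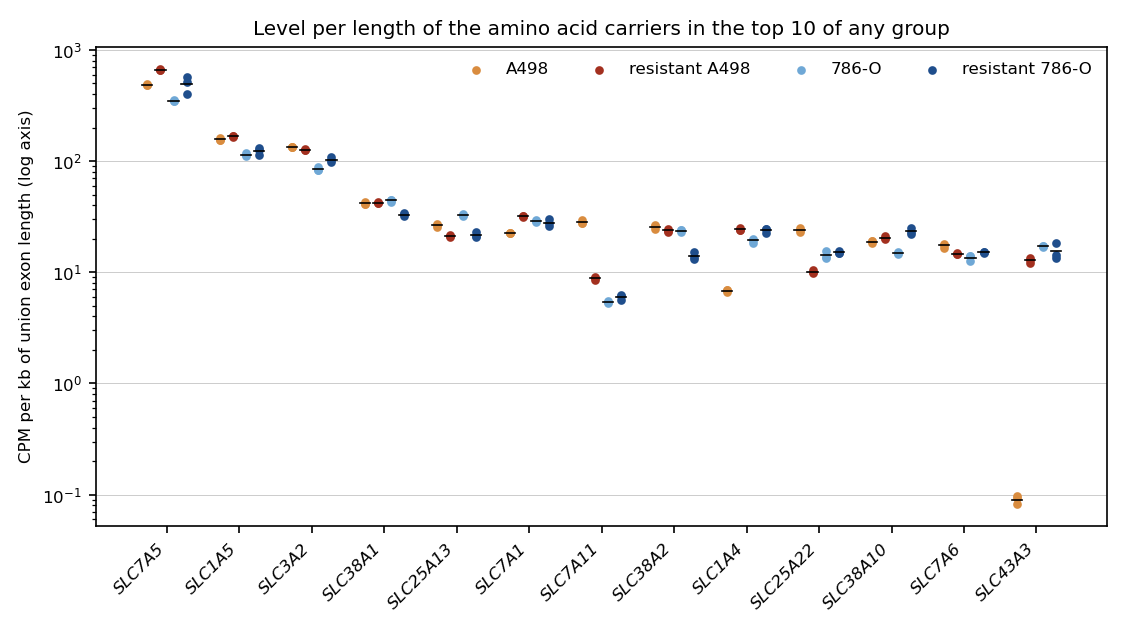
Level per length of the 13 carriers that were among the 10 highest in any group, as CPM per kb of exon length on a log axis. Points are the 3 libraries of a group and bars their mean. SLC7A5 is the highest in all 4 groups, and SLC43A3 in A498 lies far below its level in the other groups.

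Between resistant 786-O and 786-O, 27 of the 32 tested carriers passed the test (edgeR quasi-likelihood test, Benjamini-Hochberg adjusted p under 0.05), against 68.5% of the 19929 genes tested. Of these, 13 were higher and 14 lower, against 35.0% and 33.5% of all genes. At least 2-fold changes were found in 4 carriers that rose (SLC36A1, SLC38A4, SLC38A7 and SLC43A1) and in 3 that fell (SLC7A2, SLC7A8 and SLC38A5), and 22.0% of all genes changed by that much (16.2% up and 5.76% down). The median log2 fold change of the carriers was -0.02, and that of all genes was 0.03. Without SLC7A10, which had 0 counts in both groups, the carriers' median was -0.05. Between resistant A498 and A498, 23 of 32 carriers passed the test, 8 higher and 15 lower, against 72.7% of all genes (36.3% higher and 36.4% lower). The change was at least 2-fold in 5 carriers that rose and 7 that fell, against 30.8% of all genes (14.3% up and 16.5% down). Their median was -0.11, against -0.00 for all genes. Against 786-O, 24 carriers of resistant A498 passed, 14 higher and 10 lower, against 63.6% of all genes (31.6% higher and 32.1% lower). At least 2-fold differences were found in 6 of them, against 20.0% of all genes. With scaling by library size alone the split was 18 higher and 8 lower. This scaling moved the median of all genes to 0.15 in this comparison and to 0.18 in resistant 786-O against 786-O. Against 786-O the carriers' median was 0.11 and that of all genes 0.00. The resistant A498 and resistant 786-O comparisons with parental 786-O share its libraries. Between resistant 786-O and 786-O the libraries did not overlap in 68.9% of all tested genes, with 12 carriers above and 13 below. This share was 78.5% between resistant A498 and A498 (9 and 16 carriers) and 73.4% between resistant A498 and 786-O (17 and 11). A lack of overlap was thus usual, and where it is named for a carrier it is to be read beside these shares.

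Between the parental lines, 28 of 32 carriers passed the test, with 8 higher and 20 lower in 786-O than in A498, against 74.2% of all genes (38.2% higher and 36.1% lower). The carriers' median log2 difference was -0.47, and that of all genes 0.04. At least 2-fold differences were found in 11 carriers and in 31.9% of all genes. Between resistant A498 and resistant 786-O, 25 carriers passed, 16 higher and 9 lower in resistant A498, against 46.1% of all genes (23.0% in each direction), but at least 2-fold differences were found in 3 carriers alone, against 7.30% of all genes. Counts of tested carriers include SLC7A10, which had 10 to 15 counts in the A498 libraries and 0 in the other 9, and SLC38A4, which had 0 counts in A498.

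When each resistant group was set against its own labelled parent, comparisons that share no libraries, 18 of the 32 carriers passed in both, and 51.3% of all genes did so. Of these, 5 were higher in both (SLC1A4, SLC7A5, SLC38A4, SLC38A10 and SLC43A1), against 15.2% of all genes, and 8 lower in both (SLC1A1, SLC6A6, SLC6A9, SLC7A2, SLC7A7, SLC7A8, SLC25A12 and SLC25A13), against 14.3%. The other 5 (SLC7A6, SLC7A11, SLC36A4, SLC38A7 and SLC43A2) changed in opposite directions, as 21.7% of all genes did. The change itself differed between the cell lines as labelled in 28 of the 32 carriers, 14 in each direction, against 68.3% of all genes (33.9% higher and 34.4% lower). It differed by at least 2-fold in 13 carriers and in 35.1% of all genes. Over all genes resistant A498 lay nearer to 786-O than to A498. Such a difference therefore also carries that between the parental lines, and the part of each was not tested.

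**Figure D2:**
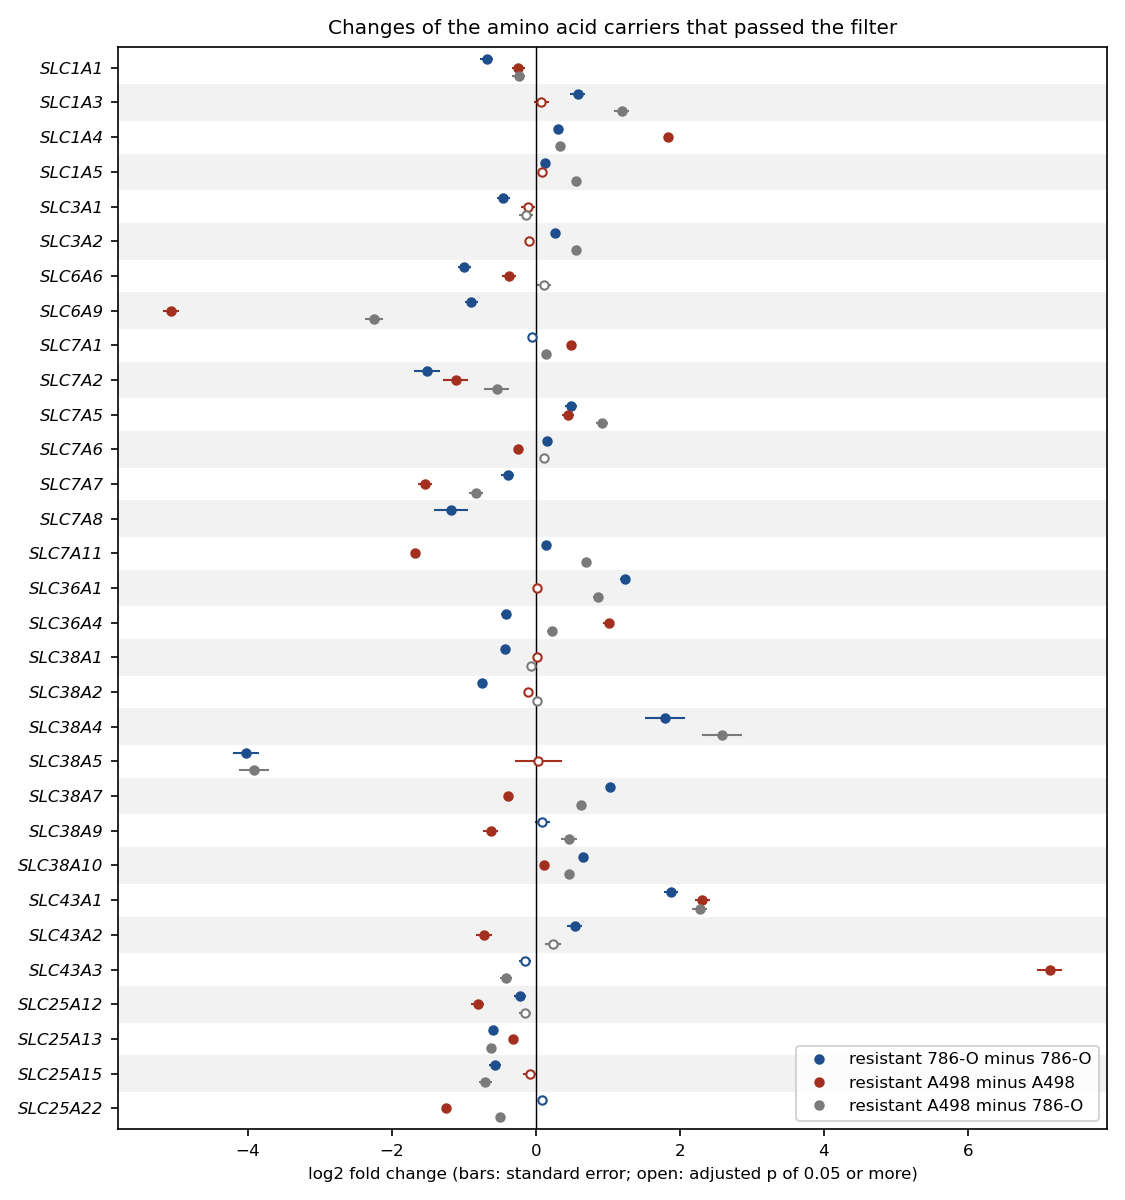
Log2 fold changes of the tested carriers in 3 comparisons, with bars for the standard error and open points for an adjusted p of 0.05 or more. SLC7A10 and the comparisons in which a group of SLC38A4 or SLC7A8 had 0 to 3 counts per library are left out. SLC43A1 rose in all 3 comparisons, and SLC38A5 fell in the comparisons with 786-O alone.

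Among the glutamine and neutral amino acid exchangers, SLC7A5 was higher in each resistant group. SLC7A5 (chromosome 16, 87830023 to 87869507) had 2310, 2334 and 2299 CPM in A498 and 3141, 3130 and 3222 CPM in resistant A498. It had 1695, 1644 and 1662 CPM in 786-O and 2426, 1920 and 2702 CPM in resistant 786-O. Every resistant library was above every library of its parent, and resistant 786-O replicate 2 was the lowest resistant library. The log2 fold change was 0.50 in resistant 786-O (standard error 0.08, edgeR adjusted p = 9.5e-05), 0.45 in resistant A498 against A498 (standard error 0.08, edgeR adjusted p = 0.00018) and 0.93 in resistant A498 against 786-O (standard error 0.08). Without resistant 786-O replicate 2 the change in resistant 786-O was 0.62. SLC7A5 has a GC content of 61.2%, and in resistant 786-O the log2 fold changes of all genes rose with GC content, from a median of -0.24 in the lowest of 4 equal groups of genes to 0.36 in the highest. With the trend over GC and gene length removed (the GC and length trend), the change of SLC7A5 was 0.20 in resistant 786-O and 0.75 in resistant A498 against A498.

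SLC3A2 (chromosome 11, 62856004 to 62888880), the heavy chain shared by several SLC7 carriers, had 858, 853 and 864 CPM in A498, 813, 803 and 800 CPM in resistant A498, 569, 535 and 529 CPM in 786-O and 657, 622 and 695 CPM in resistant 786-O. It rose in resistant 786-O by 0.27 on the log2 scale (standard error 0.05, edgeR adjusted p = 9.3e-05), with no overlap of libraries. With the GC and length trend taken out this was 0.07 and no longer passed the test. In resistant A498 the change against A498 was -0.09 and did not pass (edgeR adjusted p = 0.084), although the libraries did not overlap, and against 786-O it was 0.56. With the GC and length trend removed it was 0.11 against A498 and passed, in the opposite direction.

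SLC1A5 (chromosome 19, 46774883 to 46788594), the sodium-dependent glutamine exchanger, had 540, 520 and 519 CPM in A498, 549, 564 and 564 CPM in resistant A498, 390, 375 and 372 CPM in 786-O and 381, 440 and 417 CPM in resistant 786-O. The resistant 786-O and 786-O libraries overlapped. The log2 fold change in resistant 786-O was 0.12 (standard error 0.05, edgeR adjusted p = 0.037). That call rested on single libraries, since it was 0.07 without resistant 786-O replicate 2 (edgeR adjusted p = 0.092), and it was lost as well without any of the A498 libraries or without 786-O replicate 2 or 3 (0.11 to 0.12), which enter the shared estimate of the spread. With the GC and length trend removed the value was -0.18 and passed the test in the opposite direction. In resistant A498 it was 0.09 against A498, which did not pass (0.48 and called with the GC and length trend removed), and 0.56 against 786-O.

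SLC1A4 (ASCT1), an exchanger of serine, alanine and cysteine, had 48, 48.3 and 45.8 CPM in A498 and 168, 172 and 167 CPM in resistant A498. In 786-O it had 139, 136 and 127 CPM and in resistant 786-O 158, 170 and 170 CPM. A498 was thus far below the other 3 groups. The log2 fold change was 1.84 in resistant A498 against A498 (standard error 0.05, edgeR adjusted p = 8.9e-14), 0.31 in resistant 786-O and 0.34 in resistant A498 against 786-O. The parental lines differed by 1.499.

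Of the 4 tested sodium-coupled SLC38 carriers of the cell surface, SLC38A1, SLC38A2 and SLC38A5 fell in resistant 786-O and SLC38A4 rose. SLC38A1 (SNAT1) had 429, 415 and 413 CPM in A498, 432, 419 and 419 CPM in resistant A498, 431, 451 and 449 CPM in 786-O and 334, 319 and 340 CPM in resistant 786-O. SLC38A2 (SNAT2), whose transcript is known to rise when amino acids are scarce, had 170, 172 and 160 CPM in A498, 153, 150 and 161 CPM in resistant A498, 149, 155 and 155 CPM in 786-O and 99.7, 85.9 and 89.0 CPM in resistant 786-O. The resistant 786-O libraries were below all others for both genes. In resistant 786-O, SLC38A1 fell by 0.42 on the log2 scale (standard error 0.04, edgeR adjusted p = 3e-07) and SLC38A2 by 0.74 (standard error 0.06, edgeR adjusted p = 2e-08). With the GC and length trend removed these were -0.26 and -0.33, and both still passed. In resistant A498 neither passed against A498 (0.01 and -0.11) or against 786-O (-0.07 and 0.02), but against A498 they were -0.25 and -0.42 and passed with the trend removed.

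Of the less abundant surface members, SLC38A5 (SNAT5), a carrier of glutamine, histidine and serine, was a 786-O transcript. It had 6.21, 6.0 and 5.21 CPM in 786-O, whereas the 9 libraries of the other groups had 0.284 to 0.504 CPM. In A498 these were 0.405, 0.372 and 0.331 CPM, in resistant A498 0.410, 0.383 and 0.352 CPM, and in resistant 786-O 0.286, 0.504 and 0.284 CPM. The log2 fold change in resistant 786-O was -4.02 (standard error 0.18, edgeR adjusted p = 8.1e-11). SLC38A4, a carrier of neutral and cationic amino acids, had 0 counts in all A498 libraries. It had 1.19, 0.909 and 0.900 CPM in resistant A498, 0.158, 0.155 and 0.177 CPM in 786-O and 0.592, 0.550 and 0.590 CPM in resistant 786-O. Resistant A498 was at least 8.91-fold higher than A498, at a floor of 3 counts per library, which limits counting error alone. In resistant 786-O it rose by 1.79 on the log2 scale (standard error 0.28), on 24 to 29 counts per library against 6 to 8.

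Cystine and dibasic amino acids are carried by light chains of the SLC7 family. SLC7A11, which imports cystine for glutathione synthesis in exchange for glutamate, had 282, 267 and 265 CPM in A498, 82.8, 85.5 and 87.3 CPM in resistant A498, 50.7, 52.5 and 53.4 CPM in 786-O and 60.6, 53.7 and 58.6 CPM in resistant 786-O. The A498 libraries were above all others. SLC7A11 fell in resistant A498 against A498 by 1.67 on the log2 scale (standard error 0.05, edgeR adjusted p = 4e-13), and it rose in resistant 786-O by 0.14 (standard error 0.05, edgeR adjusted p = 0.023). The latter call was lost without 786-O replicate 1 (0.12) or replicate 2 (0.14, edgeR adjusted p = 0.058), and the value was 0.59 with the GC and length trend removed. The test of the difference between these changes gave -1.81 (edgeR adjusted p = 1.4e-11). Against 786-O, resistant A498 was higher by 0.70. The parental lines differed by -2.38 (786-O minus A498).

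SLC7A7, which with SLC3A2 exports dibasic amino acids, had 79.5, 81.3 and 82.2 CPM in A498, 27.7, 28.5 and 27.7 CPM in resistant A498, 50.1, 49.5 and 49.9 CPM in 786-O and 32.5, 46.5 and 35.0 CPM in resistant 786-O. It was lower in each resistant group than in its parent without overlap. It fell by 1.53 on the log2 scale in resistant A498 against A498 (standard error 0.10), by 0.83 against 786-O and by 0.39 in resistant 786-O (standard error 0.09). The closely related SLC7A6 had 126, 136 and 134 CPM in A498, 111, 112 and 111 CPM in resistant A498, 96.2, 106 and 106 CPM in 786-O and 115, 114 and 115 CPM in resistant 786-O. These were small changes, 0.16 in resistant 786-O and -0.24 in resistant A498 against A498, both called. The call in resistant 786-O was lost without 786-O replicate 1 (0.11). SLC3A1, the heavy chain of SLC7A9, had group means of 8.42 to 11.5 CPM and fell in resistant 786-O by 0.45, but 26.9% of its exon length overlaps another gene of the same strand, and its light chain SLC7A9 had at most 4 counts in a library.

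The branched-chain carrier SLC43A1 rose in each resistant group from a low level. SLC43A1 (LAT3), a sodium-independent carrier of leucine, isoleucine, valine, phenylalanine and methionine, had 2.46, 2.70 and 2.50 CPM in A498, 12.6, 12.5 and 12.9 CPM in resistant A498, 2.52, 2.85 and 2.46 CPM in 786-O and 8.62, 10.7 and 9.51 CPM in resistant 786-O. All 6 resistant libraries were above all 6 parental libraries, and the share of all genes with that pattern was not counted. Of all genes, 15.2% were called higher in both resistant groups than in their labelled parents. The log2 fold change was 1.88 in resistant 786-O (standard error 0.10, edgeR adjusted p = 5.4e-10), 2.31 in resistant A498 against A498 (standard error 0.11, edgeR adjusted p = 5.2e-11) and 2.28 in resistant A498 against 786-O (standard error 0.10). The parental lines differed by 0.04, which did not pass. SLC43A2 (LAT4) had group means of 7.93 to 15.4 CPM and went in opposite directions, 0.54 in resistant 786-O and -0.72 in resistant A498 against A498. Its value in resistant A498 against 786-O was 0.25 and did not pass.

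SLC43A3, a member of the same family that carries purine nucleobases rather than amino acids, separated A498 from the other groups. It had 0.434, 0.418 and 0.368 CPM in A498, 58.3, 60.3 and 55.0 CPM in resistant A498, 77.2, 77.3 and 76.5 CPM in 786-O and 60.4, 83.6 and 64.5 CPM in resistant 786-O. The log2 difference was 7.13 for resistant A498 against A498 (standard error 0.17), 7.55 for 786-O against A498 and -0.41 for resistant A498 against 786-O. In resistant 786-O it was -0.15 and did not pass, but it was -0.31 and passed without replicate 2, the one library of resistant 786-O above 786-O. SLC43A3 shares 29.9% of its exon length with another gene of the same strand, which had almost no counts.

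SLC7A8 (LAT2), another neutral light chain of SLC3A2, had 6.02, 5.62 and 6.22 CPM in A498, 0.0373, 0.144 and 0.117 CPM in resistant A498, 0.815, 0.698 and 0.621 CPM in 786-O and 0.286, 0.389 and 0.262 CPM in resistant 786-O. A498 was the high group and resistant A498 was at 1 to 3 counts per library. Summed over libraries, the level in resistant A498 was 0.016 times that in A498, with a 95% counting interval of 0.00639 to 0.0331, and 0.135 times that in 786-O, with an interval of 0.0528 to 0.291. In resistant 786-O, SLC7A8 fell by 1.18 on the log2 scale (standard error 0.24), on 12 to 17 counts per library. SLC7A10, a carrier of small neutral amino acids, was detected in A498 alone, at 0.318, 0.465 and 0.552 CPM, which was at least 3.58-fold above resistant A498 at a floor of 3 counts per library.

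**Figure D3:**
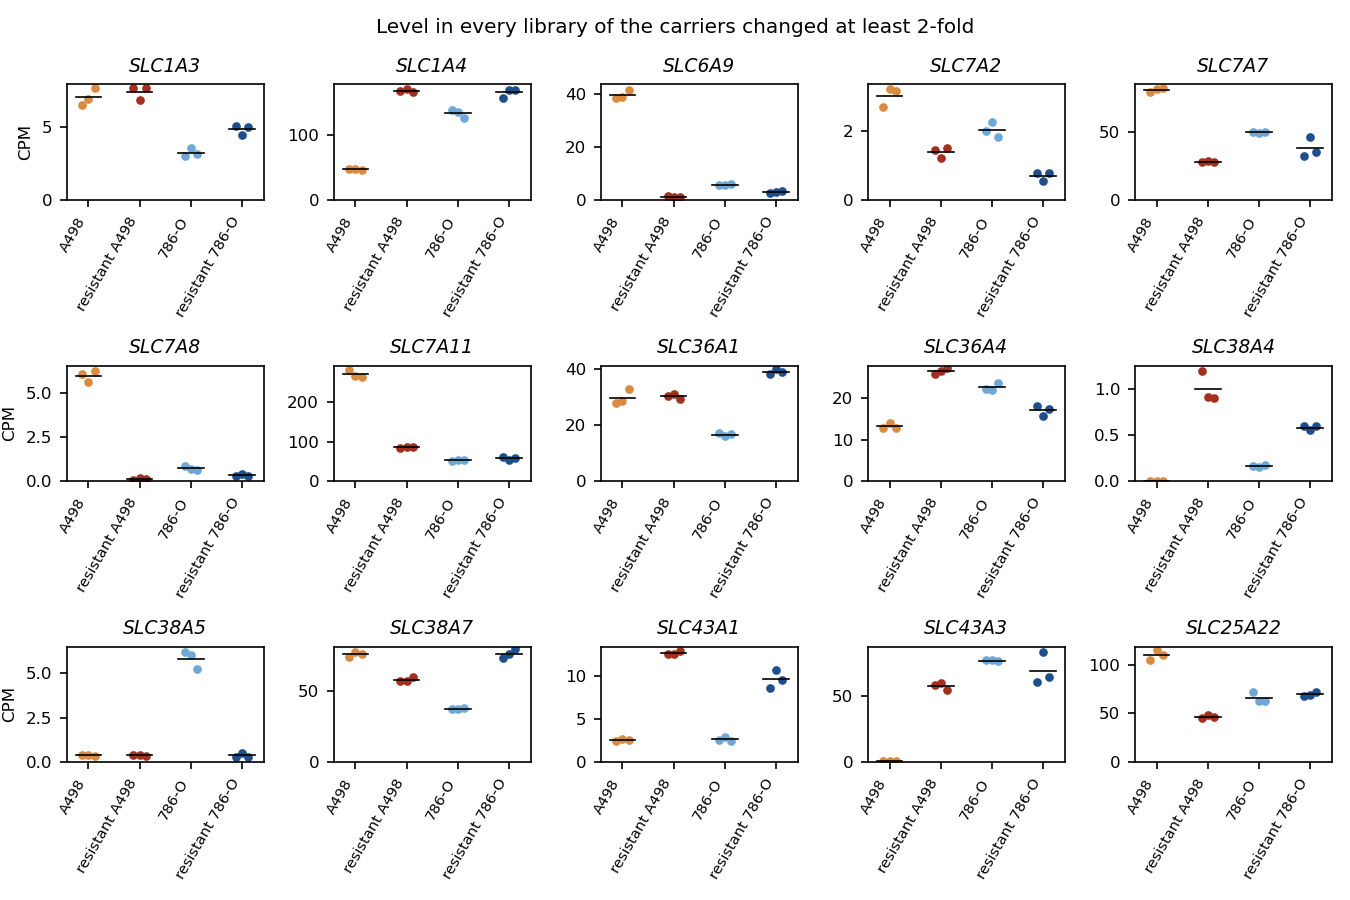
CPM in every library of the 15 carriers that changed at least 2-fold, with the mean of 3 libraries as a bar. Each panel has its own linear axis from 0. In the panels of SLC1A4, SLC38A4 and SLC43A1 all resistant libraries lie above all parental libraries. The share of all genes with that pattern was not counted. Libraries of a resistant group and its labelled parent did not overlap in 68.9% (786-O) and 78.5% (A498) of all tested genes. SLC43A3, SLC1A4 and SLC7A11 set A498 apart from the other 3 groups.

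Among cationic carriers, SLC7A1 (CAT1), the main arginine importer of many cells, was abundant and SLC7A2 (CAT2) was low. SLC7A1 had 175, 172 and 173 CPM in A498, 245, 243 and 244 CPM in resistant A498, 216, 221 and 225 CPM in 786-O and 212, 199 and 231 CPM in resistant 786-O. It rose in resistant A498 against A498 by 0.49 on the log2 scale (standard error 0.05, edgeR adjusted p = 3.3e-07). Resistant A498 was higher than 786-O by 0.14, a call lost in 2 of the 12 fits that left out 1 library. In resistant 786-O the libraries overlapped those of the parent and the change of -0.05 did not pass. SLC7A2 had 2.69, 3.21 and 3.16 CPM in A498, 1.45, 1.20 and 1.49 CPM in resistant A498, 2.00, 2.25 and 1.82 CPM in 786-O and 0.776, 0.550 and 0.787 CPM in resistant 786-O. It fell in each resistant group, by 1.51 on the log2 scale in resistant 786-O (standard error 0.17) and by 1.11 in resistant A498 against A498 (standard error 0.17), with no overlap. The value of SLC7A2 in resistant A498 against 786-O was -0.54, and this call was lost in 2 of the 12 fits that left out 1 library.

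The 2 sodium- and chloride-coupled carriers that could be tested fell in each resistant group against its labelled parent. SLC6A9 (GLYT1), the glycine carrier, had 38.5, 38.9 and 41.5 CPM in A498 but 1.30, 0.957 and 1.25 CPM in resistant A498. It had 5.65, 5.48 and 5.79 CPM in 786-O and 2.72, 3.11 and 3.30 CPM in resistant 786-O. The groups did not overlap. The log2 fold change was -5.06 in resistant A498 against A498 (standard error 0.11, edgeR adjusted p = 8.6e-15), -2.25 against 786-O and -0.89 in resistant 786-O (standard error 0.09). SLC6A6, the taurine carrier, had group means of 127 CPM in A498, 98.4 CPM in resistant A498, 91.1 CPM in 786-O and 45.9 CPM in resistant 786-O. It fell by 0.99 in resistant 786-O and by 0.37 in resistant A498 against A498. Its value in resistant A498 against 786-O was 0.11 and did not pass.

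Of the acidic amino acid carriers, SLC1A3 (EAAT1), a sodium-coupled glutamate and aspartate importer, had 6.51, 6.97 and 7.69 CPM in A498, 7.68, 6.89 and 7.71 CPM in resistant A498, 3.00, 3.57 and 3.19 CPM in 786-O and 5.11, 4.47 and 5.05 CPM in resistant 786-O. It rose in resistant 786-O by 0.58 (standard error 0.11) and overlapped between resistant A498 and A498, where the change of 0.08 did not pass. Against 786-O, resistant A498 was higher by 1.19. SLC1A1 (EAAT3), with means of 13.4 to 21.4 CPM, fell in resistant 786-O by 0.68, and the fall of 0.24 in resistant A498 against A498 lost its call in 6 of the 12 fits that left out 1 library.

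SLC36A1 and SLC38A7, carriers of the lysosomal membrane, rose in resistant 786-O, and neither rose in resistant A498 against A498. SLC36A1 (PAT1), a proton-coupled carrier that releases small amino acids from the lysosome, had 27.9, 28.5 and 33.1 CPM in A498, 30.4, 31.1 and 29.4 CPM in resistant A498, 17.1, 16.0 and 16.7 CPM in 786-O and 38.3, 40.2 and 39.1 CPM in resistant 786-O. SLC38A7 (SNAT7), the lysosomal glutamine and asparagine exporter, had 74.2, 77.3 and 76.2 CPM in A498, 57.4, 56.8 and 59.9 CPM in resistant A498, 37.1, 37.6 and 37.7 CPM in 786-O and 73.5, 76.3 and 79.3 CPM in resistant 786-O. For both genes 786-O was the lowest group and did not overlap with any other. In resistant 786-O the log2 fold change was 1.24 for SLC36A1 (standard error 0.07, edgeR adjusted p = 3.8e-10) and 1.03 for SLC38A7 (standard error 0.05, edgeR adjusted p = 7.8e-11). In resistant A498 against A498 it was 0.02 for SLC36A1, which did not pass, and -0.39 for SLC38A7. Against 786-O both were higher in resistant A498, by 0.87 and 0.63. The tested difference of the changes was -1.22 for SLC36A1 and -1.41 for SLC38A7.

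SLC38A10, an intracellular member of its family, had 152, 146 and 150 CPM in A498, 161, 157 and 167 CPM in resistant A498, 121, 115 and 118 CPM in 786-O and 176, 182 and 197 CPM in resistant 786-O. It rose in resistant 786-O by 0.65 (standard error 0.05, edgeR adjusted p = 1.5e-08), and by 0.19 with the GC and length trend removed. The value of 0.11 in resistant A498 against A498 passed the test, but lost its call in 5 of the 12 fits that left out 1 library. Resistant A498 was higher by 0.46 against 786-O. SLC38A9, the lysosomal arginine sensor of mTORC1, had means of 5.36 to 11.4 CPM. It fell in resistant A498 against A498 by 0.62, but resistant A498 was higher by 0.46 against 786-O (edgeR adjusted p = 0.0019). The value in resistant 786-O of 0.09 did not pass. SLC36A4 (PAT4), a carrier of proline and tryptophan, had 12.8, 14.0 and 12.7 CPM in A498, 25.9, 26.6 and 27.2 CPM in resistant A498, 22.3, 22.1 and 23.8 CPM in 786-O and 18.2, 15.7 and 17.4 CPM in resistant 786-O. It rose in resistant A498 against A498 by 1.01 (standard error 0.07) and fell in resistant 786-O by 0.41 (standard error 0.07). Resistant A498 was higher than 786-O by 0.22. The transcript has a GC content of 35.2%, and with the GC and length trend removed the value in resistant 786-O was 0.04 and did not pass.

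Of the 4 mitochondrial carriers, 3 fell in resistant 786-O and 3 fell in resistant A498 against A498, where 33.5% and 36.4% of all genes fell. SLC25A13 (citrin), the aspartate and glutamate exchanger, had 100, 95.3 and 98 CPM in A498, 80.2, 79.3 and 76.8 CPM in resistant A498, 122, 124 and 118 CPM in 786-O and 77.3, 84.8 and 79.3 CPM in resistant 786-O. Each resistant group lay below its parent, with log2 fold changes of -0.59 in resistant 786-O (standard error 0.05, edgeR adjusted p = 3.1e-08) and -0.31 in resistant A498 (standard error 0.05, edgeR adjusted p = 2.5e-05). Against 786-O the value of resistant A498 was -0.62. SLC25A22, a mitochondrial glutamate carrier, had 105, 115 and 110 CPM in A498, 44.8, 48.2 and 46.5 CPM in resistant A498, 71.7, 62.0 and 62.7 CPM in 786-O and 68.1, 68.8 and 71.9 CPM in resistant 786-O. It fell in resistant A498 by 1.24 against A498 (standard error 0.06) and by 0.49 against 786-O. In resistant 786-O the libraries overlapped those of the parent and the change of 0.09 did not pass. With the GC and length trend removed it was -0.31 and passed. SLC25A12 (aralar) fell by 0.21 in resistant 786-O and by 0.81 in resistant A498 against A498, and the call in resistant 786-O was lost in 7 of the 12 fits that left out 1 library (-0.11 without resistant 786-O replicate 3) and with the GC and length trend removed (-0.03). SLC25A15, the ornithine carrier, fell by 0.57 in resistant 786-O. Its value of -0.08 in resistant A498 against A498 did not pass, but against 786-O it was -0.70 (edgeR adjusted p = 5.9e-06). For SLC25A12 the value of resistant A498 against 786-O was -0.15 and did not pass.

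**Figure D4:**
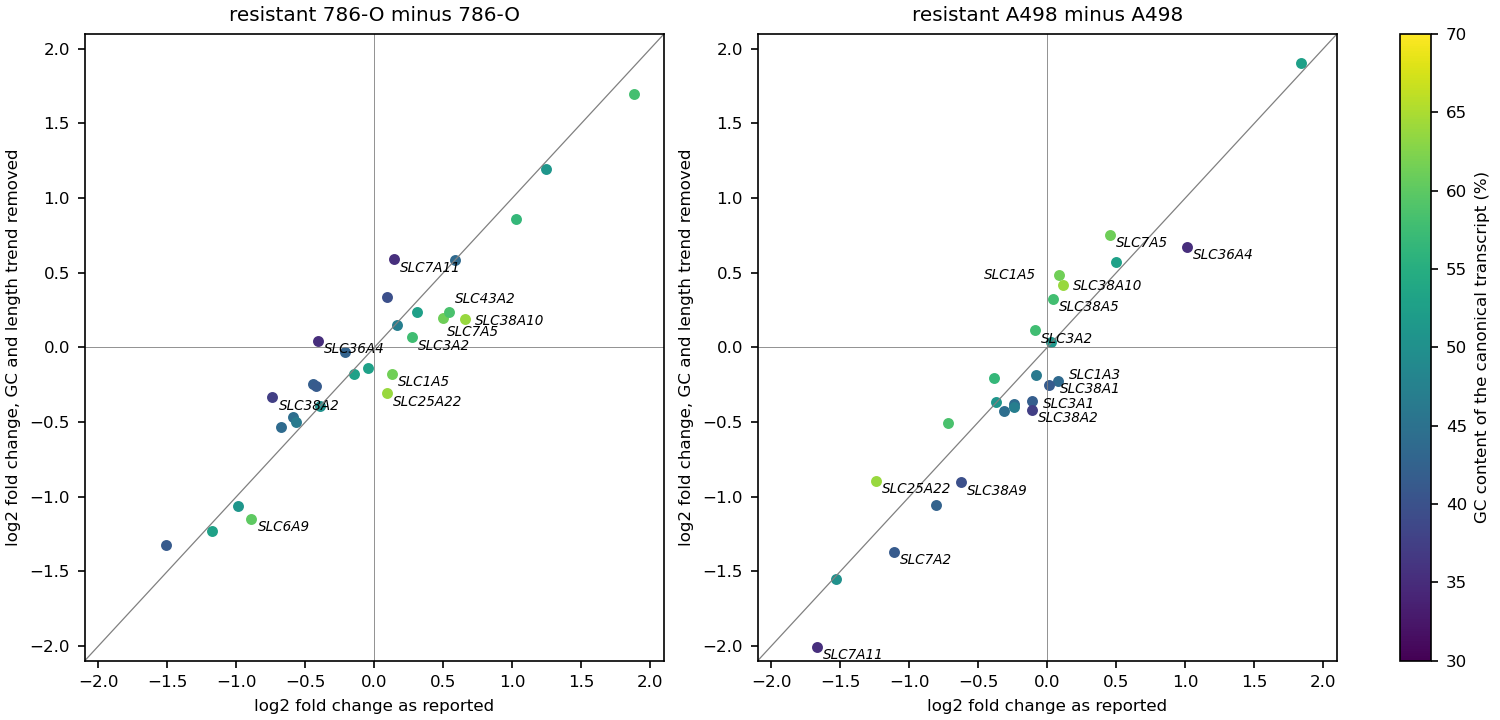
Log2 fold changes of the carriers as reported (horizontal axis) and with the GC and length trend removed (vertical axis), in resistant 786-O minus 786-O and resistant A498 minus A498, coloured by GC content. Changes beyond the axes are not drawn. Carriers rich in GC, such as SLC7A5 and SLC1A5, lie below the diagonal in resistant 786-O and above it in resistant A498, and SLC7A11, SLC36A4 and SLC38A2, poor in GC, lie on the other side.

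Genes outside the 38 that act with these carriers were counted from lists of the pathway. Over all genes, 35.0% were higher and 33.5% lower in resistant 786-O, and 36.3% were higher and 36.4% lower in resistant A498 against A498. In resistant A498 against 786-O, 31.6% were higher and 32.1% lower. The counts that follow are to be read beside these shares. Of 12 tested amino acid carriers outside the 38, from the same and other families, 6 were higher and 2 lower in resistant 786-O. In resistant A498, 8 were higher and 3 lower against A498, and 5 were higher and 1 lower against 786-O. CTNS, which exports cystine from the lysosome, rose in resistant 786-O by 1.39 (standard error 0.06). It had means of 35.0 CPM in A498 and 34.8 CPM in resistant A498, and resistant A498 was higher by 1.03 against 786-O. SLC66A1, the lysosomal exporter of cationic amino acids, rose by 0.94 in resistant 786-O and by 1.58 in resistant A498 against A498. SLC25A29 rose by 0.89 in resistant 786-O (standard error 0.16). Of 24 tested genes of lysosomal amino acid sensing, 10 were higher and 7 lower in resistant 786-O. In resistant A498, 9 were higher and 11 lower against A498, and 9 were higher and 7 lower against 786-O. These counts were near the shares of all genes. RRAGD, a Rag GTPase that recruits mTORC1 to the lysosome, rose by 5.00 in resistant 786-O (0.897 CPM in 786-O and 28.7 CPM in resistant 786-O, standard error 0.13). In resistant A498 it was higher by 1.30 against A498 and by 5.32 against 786-O.

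Of 21 regulators and targets of the amino acid response, 13 were higher and 6 lower in resistant 786-O (median log2 fold change 0.42). Of all genes, 35.0% were higher and 33.5% lower there. In resistant A498 the direction depended on the reference. Against A498, 6 were higher and 12 lower (median -0.17), where 36.3% and 36.4% of all genes were. Against 786-O, 15 were higher and 4 lower (median 0.63), where 31.6% and 32.1% of all genes were. NUPR1, a stress-induced chromatin protein, rose in resistant 786-O by 3.14. In resistant A498, NUPR1 was lower by 1.42 against A498 and higher by 4.03 against 786-O. CHAC1, which degrades glutathione, rose in resistant 786-O by 1.13. STC2, a secreted glycoprotein, fell by 2.83 in resistant 786-O and by 2.34 in resistant A498 against A498. PHGDH, the first enzyme of serine synthesis, had 381 CPM in A498 but 1.41 CPM in resistant A498, 0.198 CPM in 786-O and 0.8 CPM in resistant 786-O. Of 20 enzymes of glutamine, glutamate and glutathione metabolism, 6 were higher and 9 lower in resistant 786-O and again in resistant A498 against A498. Against 786-O, 9 were higher and 8 lower in resistant A498. The shares of all genes are those given above. In resistant A498, GCLM, the modifier subunit of glutamate-cysteine ligase, fell by 1.95 against A498 and GSR, glutathione reductase, by 1.87. GCLM was lower by 0.66 against 786-O.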

How the data were processed

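The deposited values were raw read counts per gene and library, with no normalization. According to the study's methods and the submitters' processing notes, the authors made polyA-selected, stranded libraries (bcl2fastq 2.19.0), trimmed reads with Trimmomatic 0.36.6, aligned them to GRCh38 with HISAT2 2.1.0 and counted sense reads with featureCounts 1.6.3 on GENCODE 33. Libraries were assigned to groups by their labels, and the table held 0 columns of any other sample.

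The model was fitted with edgeR 4.0.16 under R 4.3.3 (filterByExpr, which left 19929 of 45478 genes, TMM scaling and a quasi-likelihood model of 12 libraries with 4 group means). Benjamini-Hochberg adjustment covered every gene of the fit, and an adjusted p under 0.05 passed. Log2 fold changes used a prior count of 0.125. Figures used matplotlib 3.10.9 and pandas 2.3.3 (Python 3.11.15). In counts simulated after resistant 786-O against 786-O over 19253 genes, 200 were given a 2-fold change, of which 200 were called, along with 10 unchanged genes. In the data themselves 68.5% of genes were called between these groups, a far larger share than was changed in the simulation. The simulation therefore covers 2-fold changes among mostly unchanged genes, and it gives no error rate for the carriers.

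Exon lengths, GC content and positions came from GENCODE 44, which is later than the authors' annotation, and promoters from RefSeq. Depth limits low carriers: 3 counts in a library were 0.0744 CPM in 786-O and 0.112 CPM in A498 on average, and floors and intervals cover counting error alone.

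The rule for the carriers uses gene symbols alone, but these carriers, the gene lists and the tests were proposed with earlier results of these data known. Values in every library were given for carriers among the 10 highest by CPM per kb in any group, and for those called with a change of at least 2-fold, where the higher group averaged 1 CPM or more, in either resistant group against its parent or in resistant A498 against 786-O. Other carriers and listed genes were given by counts, with up to 3 genes per list of at least 5 CPM. SLC7A10, SLC3A1, SLC6A6, SLC1A1, SLC38A9, SLC43A2, SLC25A12 and SLC25A15 were named outside this rule after their values were seen.

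Alternatives were library size scaling, DESeq2 1.42.0, other filters, the replicate number as a block, fits of the compared libraries alone, removal of the GC and length trend, thinning to the smallest library, a fold minimum, a prior count of 2, other transcript lengths, each library left out, and the study's two-sample test of raw counts without adjustment. The canonical length was added after seeing the data. The authors' own p-values were not used here.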

Additional observations from a re-analysis of the deposited data

Results flagged for a closer look

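The change of 28 of the 32 tested carriers differed between the cell lines as labelled (edgeR quasi-likelihood test of the change in resistant A498 against A498 minus the change in resistant 786-O against 786-O, Benjamini-Hochberg adjusted p under 0.05), and 68.3% of all genes did so. Over all genes the libraries labelled resistant A498 lay nearer to 786-O than to A498, so a difference here also carries the difference between the parental lines, and the part of each was not tested. The difference in log2 fold change was above 0, that is, the carrier rose more or fell less in resistant A498, for SLC43A3 (7.28), SLC38A4 (6.34), SLC38A5 (4.05), SLC1A4 (1.53), SLC36A4 (1.42), SLC38A2 (0.63), SLC6A6 (0.62), SLC7A1 (0.54), SLC25A15 (0.48), SLC1A1 (0.44), SLC38A1 (0.44), SLC43A1 (0.44), SLC3A1 (0.34) and SLC25A13 (0.28). It was below 0 for SLC7A8 (-4.73), SLC6A9 (-4.17), SLC7A11 (-1.81), SLC38A7 (-1.41), SLC25A22 (-1.33), SLC43A2 (-1.26), SLC36A1 (-1.22), SLC7A7 (-1.14), SLC38A9 (-0.71), SLC25A12 (-0.59), SLC38A10 (-0.54), SLC1A3 (-0.51), SLC7A6 (-0.40) and SLC3A2 (-0.36). The value for SLC38A4 rests on 0 counts in A498 and depends on the prior count, and SLC7A8 had 1 to 3 counts per library in resistant A498. Adjusted p-values (edgeR) ranged from 2.9e-13 for SLC43A3 to 0.043 for SLC3A1. The difference for SLC3A1 lost its call in 6 of the 12 fits that left out 1 library, those without A498 replicate 2 or 3, resistant A498 replicate 2, 786-O replicate 2 or 3 or resistant 786-O replicate 3 (0.28 to 0.33), and that for SLC43A1 without 786-O replicate 2 (0.38, edgeR adjusted p = 0.052).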

How the results depend on the processing

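Of 155 log2 values, none called in the main or the alternative fit changed direction with library size scaling, DESeq2, either other filter, thinning or a prior count of 2. The same held for the fits of the compared libraries alone and for any library left out. Values called in neither fit could change sign and were not counted, here or in the rest of this paragraph. With the GC and length trend removed, 14 of 155 log2 values changed direction. They were in resistant 786-O SLC1A5 -0.18, SLC36A4 0.044 and SLC25A22 -0.31. Further values were in resistant A498 against A498 SLC3A2 0.11 and SLC38A1 -0.25. Further values were in 786-O against A498 SLC3A1 -0.22, SLC38A1 -0.10 and SLC38A10 0.20. Further values were for the difference of changes SLC1A5 0.66, SLC3A1 -0.11, SLC3A2 0.046, SLC7A5 0.56, SLC38A2 -0.086 and SLC38A10 0.23. The study's two-sample test of raw counts, which does not scale for depth, turned 21 values: in resistant A498 against A498 SLC38A10 -0.073. Others were in resistant A498 against 786-O SLC1A4 -0.39, SLC1A5 -0.17, SLC3A2 -0.17, SLC6A6 -0.62, SLC7A1 -0.59, SLC7A6 -0.62, SLC7A11 -0.03, SLC36A4 -0.51, SLC38A2 -0.71, SLC38A7 -0.10, SLC38A9 -0.28, SLC38A10 -0.27 and SLC43A2 -0.48. Others were in 786-O against A498 SLC1A1 0.55, SLC1A5 0.068, SLC6A6 0.064, SLC7A5 0.076, SLC7A6 0.20, SLC38A2 0.42 and SLC38A10 0.20. It called 13 carriers in resistant A498 against A498 and 15 in 786-O against A498. When a log2 fold change of at least 1 was also required, 7 carriers were called in resistant 786-O, 12 in resistant A498 against A498, 6 in resistant A498 against 786-O, 11 between the parental lines, 3 between the resistant groups and 13 for the difference.

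Leaving out 1 library at a time gave 24 to 27 called carriers in resistant 786-O, 21 to 26 in resistant A498 against A498, 21 to 28 against 786-O, 27 to 29 between the parental lines, 21 to 26 between the resistant groups and 26 to 29 for the difference. Without resistant 786-O replicate 2, SLC1A5 in resistant 786-O lost its call (0.07) and SLC43A3 gained one (-0.31), as did the difference of changes of SLC7A5 (-0.16). With the longest transcript as length, SLC7A5, SLC1A5 and SLC3A2 held 72.0% of the summed level in A498, 77.1% in resistant A498 and 66.0% in 786-O, and with the canonical transcript 73.7% in A498. Leaving out a library, they held 72.9% in A498, 78.4% to 78.5% in resistant A498, 67.0% to 67.5% in 786-O and 73.6% to 75.8% in resistant 786-O.

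Replicate numbers did not pair the libraries, since the correlation of deviations from the group means between libraries with the same number was -0.18 to 0.20 over 10085 genes. With the replicate number as a block, 26 carriers were called in resistant 786-O, 23 in resistant A498 against A498, 25 in resistant A498 against 786-O, 27 between the parental lines, 25 between the resistant groups and 28 for the difference. Batch labels coincide with the groups, so no fit could include them. Carriers with a few counts per library (SLC7A8, SLC7A10, SLC38A4 and SLC38A5 in their low groups) are limited by depth.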
